A study of Mus musculus with 16 samples.

Results

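The 83 cytosolic ribosomal protein genes were described in transcriptomes of parvalbumin (PV) interneurons, the fast-spiking inhibitory neurons of the cortex. They are the protein-coding genes among the 54532 genes of the deposited tables whose mouse symbol is Rpl or Rps followed by a number, plus Rplp0, Rplp1, Rplp2 and Rpsa. The Rps6k kinases were left out, as were 6 pseudogenes with matching symbols. The set holds 43 large-subunit genes, 3 genes of the P-stalk, 31 small-subunit genes and 6 paralogs, which are second copies of another member (Rpl3l, Rpl7l1, Rpl10l, Rpl22l1, Rpl39l and Rps27l). The genes lie on 19 chromosomes.

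The study compared adult PV-Cre mice, aged 113.1 ± 11.6 days, that carried either an eGFP or an eGFP-GluA2 transgene behind a loxP-stop-loxP cassette. GluA2 is the AMPA receptor subunit that makes the receptor impermeable to calcium, and per the labels the transgene served to test the removal of calcium-permeable AMPA receptors. Cells were sorted from cortex after fixation by their GFP signal and a nuclear dye, and polyadenylated RNA of each sorted cortex was sequenced in bulk, with 9 eGFP and 7 eGFP-GluA2 libraries labelled as biological replicates. All mice of both groups carried PV-Cre, so the controls shared the Cre allele, the stop cassette and the fluorescent tag, and either transgene was limited to cells with PV-driven Cre. In bulk RNA, fewer cells with a transcript and less transcript per cell cannot be told apart.

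Every cytosolic ribosome is built from a small subunit, which decodes the mRNA, and a large subunit, which joins the amino acids. Each subunit combines ribosomal RNA with a fixed set of proteins, nearly all present as a single copy, and the genes are expressed together in nearly every cell type. Their mRNAs are short and abundant, and most begin with a C followed by an unbroken run of pyrimidines, the terminal oligopyrimidine tract through which the mTOR pathway sets their translation. Many of the genes host small nucleolar RNAs in their introns, and the mouse genome carries a large number of processed pseudogenes copied from their mRNAs. In neurons, ribosomes are found in the soma and also in dendrites and axons.

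The start-site sequences are shown first because the tract is the feature that these genes are known to share. RefSeq start sites (GRCm38.p6) were found for 63 of the 83 genes, with 75 starts in all. Each sequence below runs from 45 bases before to 15 bases from the annotated start, 5′ to 3′ on the gene's strand, so that the first transcribed base is the 46th, and capitals mark a pyrimidine run that begins with C at that base. The first 4 belong to the genes of highest level among those with a run of at least 8 bases. Rpl38 lies at chr11:114668535-114668594, plus strand, Rpl35a at chr16:33056437-33056496, plus strand, Rps6 at chr4:86857353-86857412, minus strand, and Rps18 at chr17:33955651-33955710, minus strand. The other 3 belong to paralogs and, like most members, have no such run at the annotated start; in Rpl22l1 a run of 8 bases begins at the fourth transcribed base. Rpl3l lies at chr17:24727781-24727840, plus strand, Rpl10l at chr12:66284387-66284446, minus strand, and Rpl22l1 at chr3:28805463-28805522, plus strand.
Rpl38: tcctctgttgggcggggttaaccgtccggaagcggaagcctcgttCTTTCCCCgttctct
Rpl35a: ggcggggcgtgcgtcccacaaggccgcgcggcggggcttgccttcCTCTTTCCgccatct
Rps6: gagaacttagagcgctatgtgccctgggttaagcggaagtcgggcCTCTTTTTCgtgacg
Rps18: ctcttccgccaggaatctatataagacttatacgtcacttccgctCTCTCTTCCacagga
Rpl3l: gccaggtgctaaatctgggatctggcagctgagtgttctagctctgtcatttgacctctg
Rpl10l: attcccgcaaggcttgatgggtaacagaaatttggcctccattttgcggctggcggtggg
Rpl22l1: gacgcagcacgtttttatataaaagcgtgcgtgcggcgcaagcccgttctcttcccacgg

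A run of at least 8 bases that began with C exactly at the annotated start was present at 9 of the 75 starts (12%), against 0.779% of all 32851 RefSeq starts. Allowing the run to begin within 5 bases of the annotated start gave 21 of 75 (28%), against 4.37% of all starts. These shares describe the annotated positions, which can differ by some bases from the base at which a transcript begins. In the whole window from 250 bases before to 50 bases after the start, searched on both strands, CGGAAG (the core of ETS-family binding sites) was present in 45 of 75 windows (60.0%, all windows 16.9%). ATGGCG, a core of the YY1 motif that also spells a start codon, was present in 24 (32.0%, all 8.93%) and GGGCGG in 45 (60.0%, all 35.7%). TATAAA was present in 7 windows (9.33%, all 13.6%). A match of letters is a description and does not show that a factor binds there.

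Libraries differed in a way that the groups do not explain, and this bears on every value below. The CPM values (counts scaled to the library total) of 1452 receptor genes for odours and pheromones on the autosomes, known for expression in sensory neurons of the nose, were summed. This sum, called the background here, ranged from 82.4 to 4152 CPM. It was under 500 CPM in eGFP 7, 8 and 9 and eGFP-GluA2 6 and 7 (low), between 500 and 1500 CPM in eGFP 5 and 6 and eGFP-GluA2 2, 4 and 5 (middle), and over 1500 CPM in eGFP 1 to 4 and eGFP-GluA2 1 and 3 (high). Total counts were 7454165 to 15462544 per library, and the low-background libraries were also the deepest (13175003 to 15462544). Pvalb, which encodes parvalbumin and defines these cells, was at 100 to 414 TPM (a share of all transcripts, scaled by transcript length), and Gad1, a GABA-synthesizing enzyme, at 368 to 1245 TPM. Gria2, the gene that encodes GluA2, was at 57.2 to 108 TPM in eGFP and at no less than 142 TPM in every eGFP-GluA2 library, without overlap.

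The ribosomal protein genes were abundant and similar to each other in level. On the TPM scale, which divides by transcript length and allows genes to be compared, 78 of the 83 genes had a mean of at least 10 over the 16 libraries and 14 of at least 100, with a median of 59.3. Large-subunit genes had a median of 61.4 TPM, small-subunit genes 60.0, and the 6 paralogs 4.00. The 10 highest genes held 26.4% of the summed TPM. The order of the genes was much the same in every library: over the 120 pairs of libraries, Spearman's rho across the 83 genes was at least 0.918, with a median of 0.966. These correlations run across genes, which are not independent replicates.

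Rplp1 was the highest, with a mean of 189 TPM. It encodes an acidic protein of the P-stalk, the flexible arm of the large subunit that recruits elongation factors. Its TPM was 93.3 at the lowest, 155 at the median and 298 at the highest in eGFP, and 102, 164 and 364 in eGFP-GluA2 libraries. The other stalk genes were lower: Rplp2, its partner, had a mean of 62.7 TPM and Rplp0, which anchors both to the ribosomal RNA, 34.4 TPM. In the assembled stalk, Rplp1 and Rplp2 are present in more than one copy per ribosome and Rplp0 in a single copy. Next in level came Rpl13a (171 TPM), also known for translational control in immune cells, Rpl38 (150 TPM), known for its role in the translation of Hox mRNAs, Rps24 (146 TPM), a small-subunit protein mutated in some forms of Diamond-Blackfan anaemia, and Rpl41 (139 TPM), the smallest ribosomal protein. Rpsa, the small-subunit protein first described as a laminin receptor, was at 48.4 TPM.

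**Figure D1:**
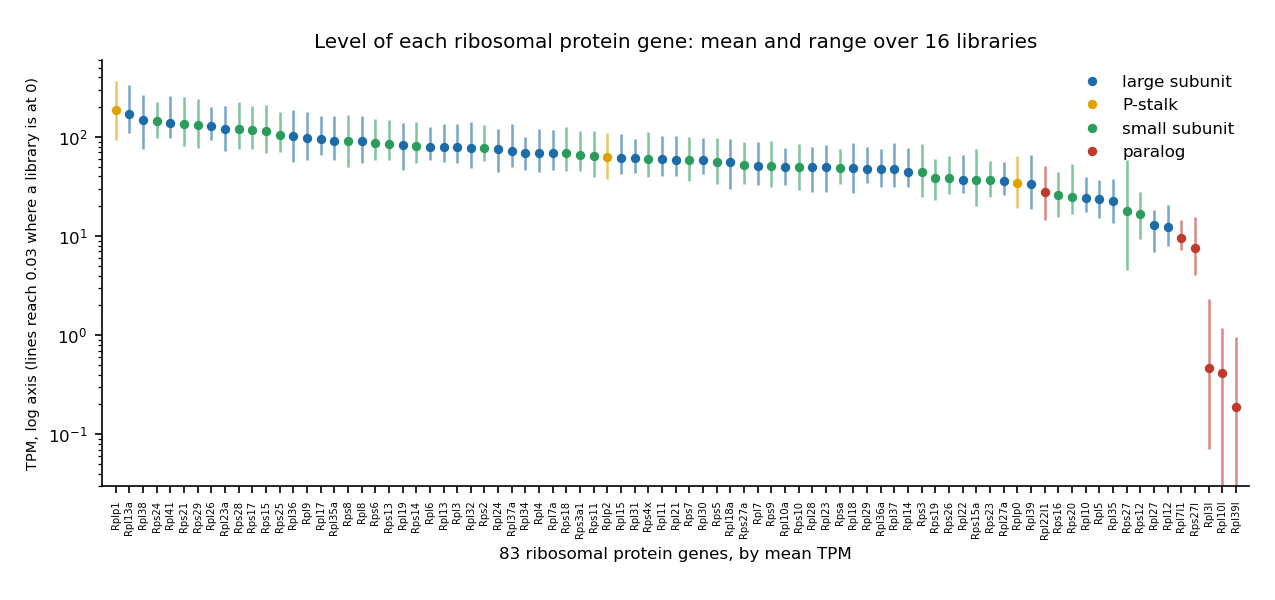
Level of each of the 83 genes: points are mean TPM over 16 libraries on a log axis, lines run from the lowest to the highest library, and colours mark large subunit, P-stalk, small subunit and paralog genes. The 78 genes of at least 10 TPM form a shallow slope from Rplp1 at 189 TPM down, and 3 paralogs (Rpl3l, Rpl10l, Rpl39l) lie under 1 TPM.

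The paralogs fell into distinct levels. Rpl22l1, which can replace Rpl22 in the large subunit, had a mean of 27.8 TPM beside 37.2 TPM for Rpl22. Rpl7l1, a relative of Rpl7 with a role in ribosome assembly, was at 9.54 TPM beside 51.1 TPM for Rpl7. Rps27l, a p53-responsive copy of Rps27, was at 7.54 TPM beside 17.9 TPM for Rps27. The Rps27 value is uncertain: its TPM ranged 12.9-fold over libraries, from 4.58 to 59.3, while its deposited counts ranged 1.53-fold, from 27.1 to 41.3 CPM.

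The remaining paralogs were close to 0. Rpl3l, known from heart and skeletal muscle, had a mean of 0.468 TPM against 78.6 TPM for Rpl3, which helps shape the peptidyl transferase centre. Rpl10l and Rpl39l, both known from testis, had means of 0.412 and 0.187 TPM against 24.4 TPM for Rpl10 and 33.9 TPM for Rpl39. Rpl10l and Rpl39l were the only members that did not pass the filter on low counts, which left 81 of 83 genes in the tests.

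In deposited counts, these 3 paralogs followed the background level and not the rest of the set. The CPM of Rpl3l was 0.429 to 0.683 in the 5 low-background, 1.40 to 2.68 in the 5 middle and 2.83 to 8.18 in the 6 high-background libraries, so that the 3 ranges did not overlap. Rpl10l had no count in any of the 5 low-background libraries, where 3 counts, the limit that a count of 0 allows, correspond to 0.194 to 0.228 CPM, and 0.639 to 1.74 CPM in the high-background libraries. Rpl39l had no count in 4 of the 5 low-background libraries. The summed CPM of Rpl3l, Rpl10l and Rpl39l had a mean of 0.537 ± 0.0867 (SD, n = 5) in low- and 7.70 ± 2.94 (SD, n = 6) in high-background libraries, a 14.3-fold difference in the same direction as the receptor genes, whose background sum differed 29.5-fold. On the TPM scale the same sum was 0.321 ± 0.219 (SD, n = 5) and 2.17 ± 1.17 (SD, n = 6), a 6.74-fold difference in the same direction, but single genes were less clear. Rpl3l was at 0.116 to 0.354 TPM in low-, 0.0702 to 0.237 in middle and 0.340 to 2.33 in high-background libraries, with overlapping ranges. Rpl10l was above 0 TPM in 1 low-background library, eGFP 7 (0.239), and Rpl39l was at 0 in the high-background library eGFP 1. Whether these reads come from mRNA of the paralogs was not tested. Each group had libraries at all 3 levels, and the mean of the same sum was 3.66 ± 3.33 CPM for eGFP (SD, n = 9) and 4.25 ± 4.17 CPM for eGFP-GluA2 (SD, n = 7).

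Deposited counts on pseudogene copies of the members moved the same way, but their TPM did not. By sequence, 77 of the 83 genes had at least 1 annotated pseudogene transcript elsewhere with 95% identity or more over at least 150 bases, with a median of 5 and 597 distinct copies in all. Rpl21 had 61 and Rpl29 33. The copies together held 7.11 to 7.86 counts per 100 ribosomal protein counts where the background was low, and 12.4 to 23.2 where it was high. Their summed CPM was 1.76-fold higher in the high-background libraries (612 ± 69.4, SD, n = 6) than in the low-background ones (347 ± 13.1, SD, n = 5). Their summed TPM was 1281 ± 144 (SD, n = 6) and 1346 ± 248 (SD, n = 5), slightly higher where the background was low (1.05-fold) and within the spread of the libraries. Because the sequences are nearly identical, reads of a gene and of its copies may not be told apart, and the values of genes with many copies are uncertain to that extent.

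**Figure D2:**
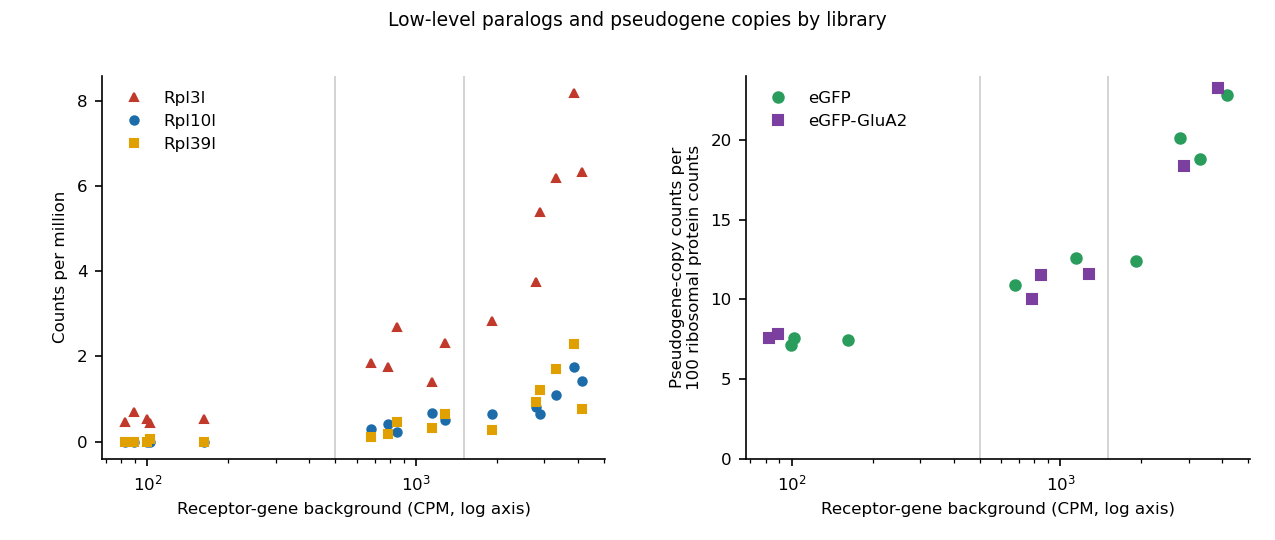
Left, CPM of Rpl3l, Rpl10l and Rpl39l in each of the 16 libraries against the background (summed CPM of receptor genes, log axis). Right, counts on pseudogene copies per 100 ribosomal protein counts, by group; grey lines mark 500 and 1500 CPM. All values of Rpl3l lie under 0.7 CPM in low-background libraries, and the pseudogene share rises from 7.11 to 23.2.

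The ribosomal protein genes together were the opposite: their sum was highest where the background was lowest. Summed TPM was 6031 to 9473 in the 5 low-background libraries, 4089 to 5990 in the 5 middle and 3708 to 4387 in the 6 high-background libraries. The low-background values lay above all others, and the overall range was 2.55-fold. In deposited counts the sum was 4374 to 4860 CPM in the low- and 2878 to 3997 CPM in the high-background libraries. The means differed 1.80-fold in TPM and 1.43-fold in CPM. These levels are a description, since the libraries were split after a value measured in them.

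On the log2 CPM scale after TMM scaling, the median difference between low- and high-background libraries was 1.03 for the members and -0.19 for all genes tested. Here 73 of 81 members were higher in the low-background libraries without overlap (90.1%), where the share of all genes was 26.0%, and 1 was lower without overlap (1.23%, all genes 37.9%). The exception was Rpl3l, with a difference of -2.47. Rps10 also differed downwards (-0.53) with overlapping ranges, on deposited counts that hold few of its reads. In TPM, Rps10 was higher in low- (50.5 to 84.2) than in high-background libraries (29.2 to 46.2), without overlap. Other lists moved in the same direction: the summed TPM of 10 PV-cell markers was 1.98-fold, of 10 elongation factors 1.82-fold, of 31 initiation factors 1.64-fold and of 78 mitochondrial ribosomal protein genes 1.35-fold higher in low- than in high-background libraries. Markers of other cells differed too. Summed TPM was 1.46-fold higher in low-background libraries for astrocyte, 1.49-fold for erythroid, 1.28-fold for oligodendrocyte, 1.26-fold for microglia and 1.24-fold for excitatory neuron markers. For endothelial and mural markers it was lower, with 5.67 ± 0.708 (SD, n = 5) against 17.7 ± 4.47 TPM (SD, n = 6) in high-background libraries. In summed CPM, microglia markers were lower in low-background libraries, at 31.7 to 40.0 against 55.4 to 69.4 in high-background ones. Mean CPM was also lower for erythroid (21.9 against 26.1), oligodendrocyte (115 against 121) and excitatory neuron markers (239 against 248), with overlapping ranges. Astrocyte markers kept their direction (247 against 182), as did endothelial and mural markers (15.3 against 80.6). The part of other cells in the members' difference was not tested.

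The balance of the subunits stayed level. Small-subunit genes held 38.8% to 40.3% of the members' summed TPM in every library, with 39.6% ± 0.589 for the eGFP group (SD, n = 9) and 39.9% ± 0.229 for the eGFP-GluA2 group (SD, n = 7). The P-stalk share varied more, from 4.20% to 5.95%. It was 5.45% to 5.95% in low- and 4.20% to 5.21% in high-background libraries, without overlap.

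**Figure D3:**
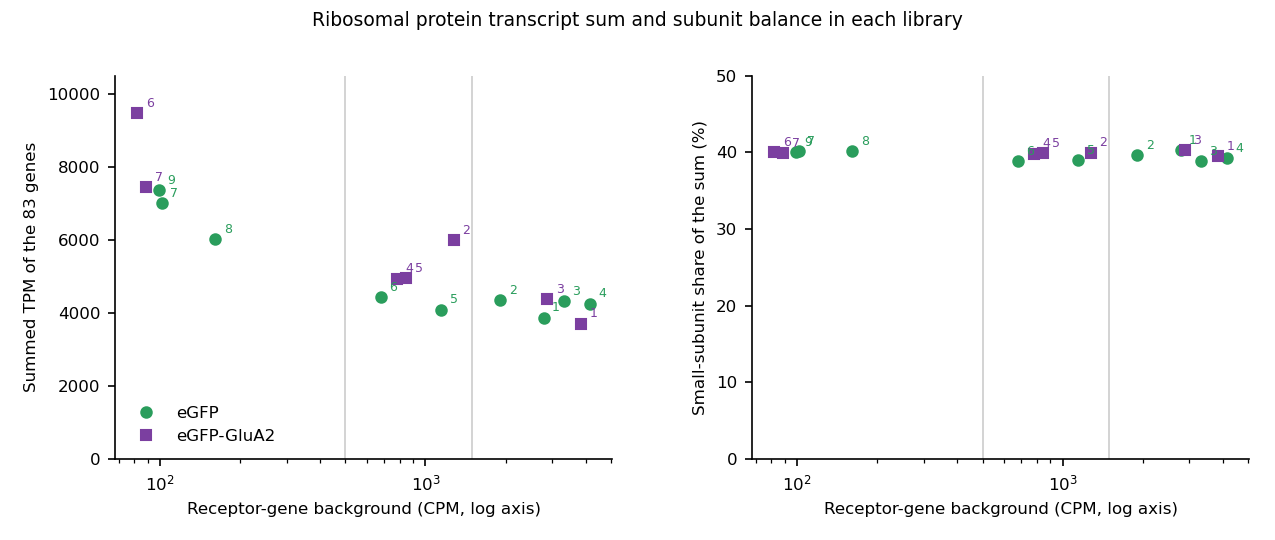
Left, summed TPM of the 83 genes in each library against the background (summed CPM of receptor genes, log axis); right, share of small-subunit genes in that sum (%). Circles are eGFP and squares eGFP-GluA2 libraries with their replicate numbers, and grey lines mark 500 and 1500 CPM; the sum falls from 9473 to 3708 TPM across libraries while the share keeps within 38.8% to 40.3%.

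The members also varied together from library to library. Over the 16 libraries, 58 of the 78 genes with a mean of at least 10 TPM had a Pearson r above 0.9 in log2(TPM + 0.5) with the mean of the other members. The lowest values were those of Rps27 (0.088), Rpl10 (0.37) and Rpl12 (0.43). Among 6962 other genes of similar minimum level, the profiles most like the members' mean were Npm1 (r = 0.984), which encodes the nucleolar chaperone nucleophosmin of ribosome assembly, Trappc3 (0.983), a vesicle-tethering subunit, and Chtop (0.982), an mRNA export factor. How many of these 6962 genes had an r above 0.9 was not counted, so the count of 58 does not set the members apart. All these values share the libraries, their depth and their background levels, and they are given as a description.

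The comparison of eGFP-GluA2 with eGFP asked whether the transgene changed these transcripts. No member passed an adjusted p of 0.05 in edgeR's quasi-likelihood test, in which 0.00381% of all 26257 genes tested were called, nor with the background level as a covariate, where 0.0343% were called. At an unadjusted p under 0.05 there were 0 members in the first test (all genes 1.12%) and 2 in the second (2.47%, all genes 3.8%). DESeq2 gave 0 adjusted calls among the members with either design (all genes 0.0533% without and 0.11% with the covariate), and 0 and 2 members at an unadjusted p under 0.05 (all genes 1.69% and 5.05%). Limma-voom also gave 0 adjusted calls (all genes 0.00381% and 0.0267%), and 0 and 3 members unadjusted (all genes 1.15% and 4.17%). The authors' deposited table, from DESeq2, lists no member under an adjusted p of 0.05. Its log2 fold changes run from -0.10 to 0.20, with a median of 0.03 and a smallest unadjusted p of 0.167 (DESeq2). Its normalized values rest on other reads than the deposited counts, so its fold changes may not compare directly with those given here. In log2 CPM, 0 members had groups without overlap, higher or lower in eGFP-GluA2 (all genes 0.00381% and 0.0152%), and in TPM likewise 0 (all genes 0.00762% in each direction).

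The estimates lay close to 0 and mostly above it. With TMM scaling the log2 fold change (eGFP-GluA2 over eGFP) was above 0 for 74 of 81 members (91.4%), against 45.5% of all genes tested, with a median of 0.10 against -0.02. With the background as a covariate it was above 0 for 73 members (90.1%, all genes 53.0%), with a median of 0.10 against 0.01. Large- and small-subunit genes had medians of 0.10 each in both fits. The members varied together over the libraries, so their signs are not independent of each other. The precision was limited: the 95% interval of a member had a median half-width of 0.54 without and 0.29 with the covariate. Within these intervals, 79 and 80 of 81 members kept below a change of 1 on the log2 scale in either direction.

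The size of this offset depended on single libraries. Its median with the covariate was -0.01 without eGFP-GluA2 2, where 40 of 81 members were above 0, and 0.16 without eGFP-GluA2 1. Without the covariate it ran from 0.02 without eGFP 4 to 0.21 without eGFP-GluA2 1. Without the 6 high-background libraries it was 0.04 and with the covariate 0.08, and in those 6 libraries alone it was -0.22 and -0.06.

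Within the background levels the direction differed. In the middle libraries, 79 of 81 members had a higher mean log2 CPM in the 3 eGFP-GluA2 than in the 2 eGFP libraries (97.5%, all genes 49.3%), with a median difference of 0.28, and 54 did not overlap (66.7%, all genes 8.86%). In the low libraries, 12 members were higher (14.8%, all genes 41.4%), with a median of -0.11 and 1 without overlap (all genes 9.23%). In the high libraries, 8 were higher (9.88%, all genes 47.5%), with a median of -0.19 and 0 without overlap (all genes 5.64%). These counts come from 2 to 4 libraries a group and had no test. On the log2(TPM + 0.5) scale the low libraries gave the other direction, with a median of 0.31 for the members and 0.29 for all genes tested, while the middle libraries gave 0.31 against 0.02 and the high ones -0.05 against 0.08.

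Summed TPM had a mean of 5081 ± 1348 for eGFP (SD, n = 9) and 5842 ± 2002 for eGFP-GluA2 (SD, n = 7), with overlapping ranges of 3874 to 7368 and 3708 to 9473. The log2 difference of the group means was 0.20, smaller than the SD of 0.36 among eGFP libraries, and 0.04 without eGFP-GluA2 6, the library with the highest sum. The fold between groups was 1.24 in the low, 1.24 in the middle and 0.964 in the high libraries.

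**Figure D4:**
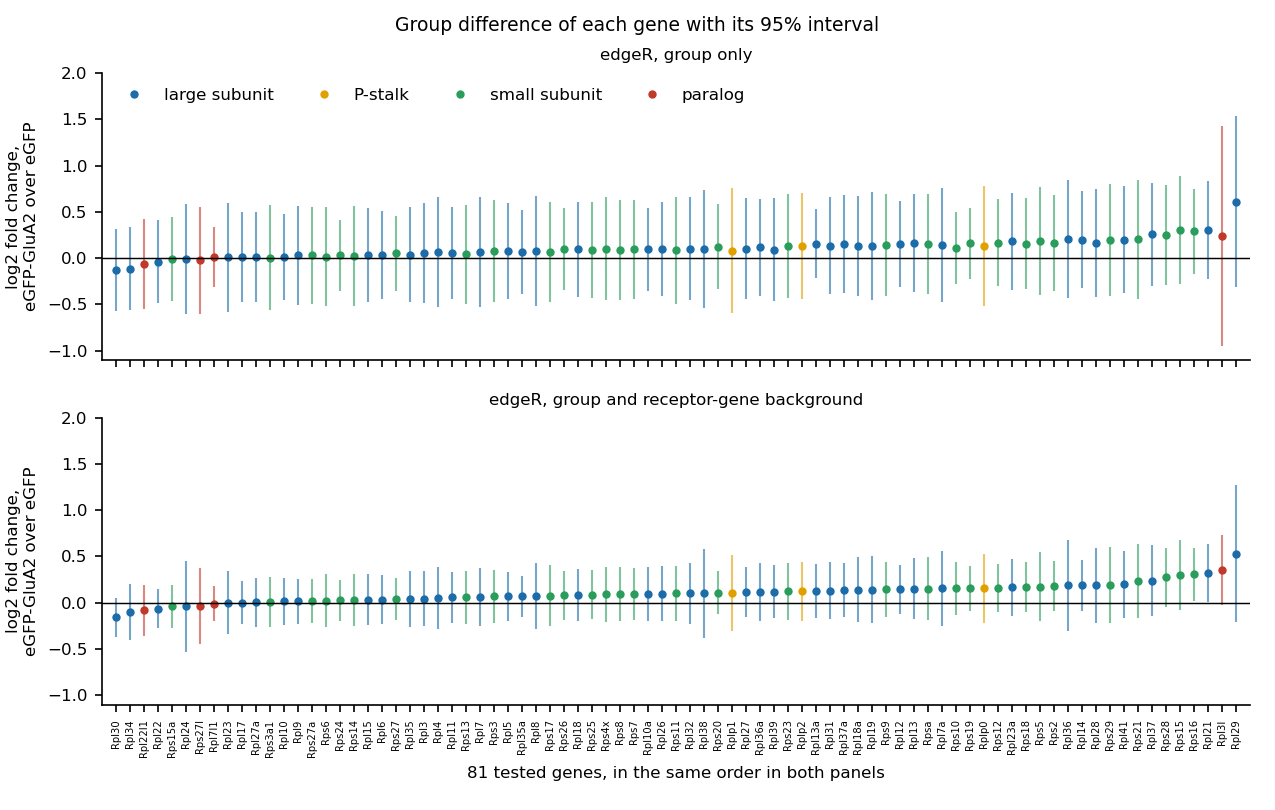
Log2 fold change (eGFP-GluA2 over eGFP) of the 81 tested genes with 95% intervals, from edgeR with the group alone (top) and with the background level added (bottom), in the same gene order and coloured by role. The points lie mostly above 0, and the intervals of all members but Rps16 and Rpl21 in the lower panel include 0.

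Rps16 and Rpl21 were the 2 members with an unadjusted p under 0.05 in the fit with the covariate. Rps16 (ENSMUSG00000037563, GRCm38 chr7:28350652-28353155, plus strand) encodes a small-subunit protein whose tail reaches the decoding site. Its deposited counts were 17.2 at the lowest, 23.7 at the median and 28.8 CPM at the highest in eGFP, and 21.1, 28.7 and 33.8 CPM in eGFP-GluA2 libraries. The groups overlapped, with 3 eGFP-GluA2 libraries (2, 3 and 5) above all eGFP values. Its log2 fold change was 0.29 ± 0.22 (SE, edgeR) without and 0.31 ± 0.14 (SE, unadjusted p = 0.0357, adjusted p = 1.00, edgeR) with the covariate. On recovered reads it was 0.20 ± 0.14 (SE, unadjusted p = 0.153, edgeR) with the covariate. Limma on log2(TPM + 0.5) gave 0.31 ± 0.14 (SE, unadjusted p = 0.0368) with the covariate, not past the adjusted threshold.

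Rpl21 (ENSMUSG00000041453, chr5:146832890-146837032, plus strand) encodes a large-subunit protein and is the member with the most pseudogene copies. It had 46.5, 73.1 and 98 CPM (lowest, median, highest) in eGFP and 65.9, 92.4 and 101 CPM in eGFP-GluA2 libraries. The ranges overlapped over most of their width. Its log2 fold change with the covariate was 0.32 ± 0.15 (SE, unadjusted p = 0.0472, edgeR). On recovered reads it was 0.32 ± 0.14 (SE, unadjusted p = 0.0337, edgeR) with the covariate, not past the adjusted threshold. On the log2(TPM + 0.5) scale limma gave 0.40 ± 0.10 (SE, unadjusted p = 0.000599, adjusted p = 0.983) with the covariate. In that test 16 of 81 members had an unadjusted p under 0.05 (19.8%, all genes 2.87%), all with higher values in eGFP-GluA2 libraries (all genes 2.44% higher) and 0 past the adjusted threshold (all genes 0.0152%). On this scale most genes lay above 0: 73 of 81 members (90.1%) and 68.9% of all genes.

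Rps15, a small-subunit protein needed for the export of its subunit from the nucleus, was also among the largest positive estimates without the covariate. It had 42.6, 58.2 and 74.5 CPM in eGFP and 38.9, 74.8 and 90.4 CPM in eGFP-GluA2 libraries, a log2 fold change of 0.30 ± 0.28 (SE, unadjusted p = 0.288, edgeR). In the 10 libraries of low or middle background, its log2 fold change with the covariate was 0.27 ± 0.08 (SE, unadjusted p = 0.00413, adjusted p = 0.379, edgeR), the smallest p among the members there. In that fit 9 of 81 members had an unadjusted p under 0.05 (11.1%, all genes 6.85%). Of these, 8 were higher in eGFP-GluA2 libraries (9.88%, all genes 3.81%) and Rpl34 was lower. None of the 9 passed the adjusted threshold (all genes 0.242%).

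At the other end, Rpl30, which binds a kink-turn in RNA, had the lowest estimate on deposited counts. Its counts were 20.1, 25.1 and 34.2 CPM in eGFP and 18.9, 23.5 and 30.0 CPM in eGFP-GluA2 libraries, overlapping almost completely. The log2 fold change was -0.13 ± 0.21 (SE, edgeR) without and -0.16 ± 0.10 (SE, unadjusted p = 0.141) with the covariate. On recovered reads its estimates were 0.02 ± 0.20 and -0.0045 ± 0.13 (SE, edgeR), and those of Rps27 (-0.24 ± 0.46 and -0.26 ± 0.49) and Rpl22l1 (-0.17 ± 0.31 and -0.15 ± 0.14) were lower. Limma on log2(TPM + 0.5) gave 0.07 ± 0.11 (SE) for Rpl30 with the covariate, so its sign depended on the quantification. On deposited counts Rpl34 followed, with -0.11 ± 0.21 and -0.10 ± 0.15 (SE, edgeR), and -0.22 ± 0.09 (SE, unadjusted p = 0.0261, adjusted p = 0.655, edgeR) with the covariate in the libraries of low or middle background. A gene annotated on the other strand overlaps Rpl30, and without a stated strand setting its reads cannot be told apart.

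None of the tested paralogs passed the adjusted threshold. Rpl22l1 had 6.68, 10.2 and 15.2 CPM (lowest, median, highest) in eGFP and 7.58, 10 and 12.6 CPM in eGFP-GluA2 libraries, with a log2 fold change of -0.08 ± 0.13 (SE, unadjusted p = 0.55, edgeR) with the covariate. Its parent Rpl22 had -0.06 ± 0.10 (SE) in the same fit. Rpl7l1 was the most even, with 23.1 to 32.0 CPM over all 16 libraries and a log2 fold change of -0.01 ± 0.09 (SE). Rps27l had -0.04 ± 0.20 (SE). Rpl3l had 0.24 ± 0.56 (SE) without and 0.35 ± 0.18 (SE, unadjusted p = 0.0669) with the covariate, the latter from the gene that itself followed the background.

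On deposited counts, the P-stalk genes and Rpsa were each within 1 SE of 0. With the covariate their log2 fold changes in edgeR were 0.16 ± 0.18 (SE) for Rplp0, 0.11 ± 0.20 for Rplp1, 0.12 ± 0.15 for Rplp2 and 0.15 ± 0.16 for Rpsa. On the log2(TPM + 0.5) scale with the covariate, limma gave 0.20 ± 0.09 (SE, unadjusted p = 0.0399) for Rplp2 and 0.21 ± 0.09 (SE, unadjusted p = 0.0295) for Rpsa, neither past the adjusted threshold. Rplp0 had 35.0, 53.7 and 79.2 CPM in eGFP and 35.3, 63.9 and 78.6 CPM in eGFP-GluA2 libraries. These ranges were nearly the same at both ends.

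Rpl29 (ENSMUSG00000048758, chr9:106429454-106431568, plus strand), a large-subunit protein also described as a heparin-binding protein at the cell surface, had the largest estimate, 0.61 ± 0.44 (SE, unadjusted p = 0.181, edgeR) without and 0.53 ± 0.34 (SE, unadjusted p = 0.144) with the covariate. Its deposited counts were 7.26, 20.2 and 31.5 CPM in eGFP and 8.85, 34.8 and 50.8 CPM in eGFP-GluA2 libraries. They spanned 7.00-fold over the libraries, the widest among the 78 members of at least 10 TPM, whose median span was 1.91-fold. The lowest values were those of eGFP 5 (7.26), eGFP-GluA2 1 (8.85), eGFP-GluA2 4 (9.73) and eGFP 2 (11.3), and the highest those of eGFP-GluA2 5, 6 and 7 (50.8, 47.0 and 46.0). The other deposited quantification did not show this pattern: its scaled reads for Rpl29 spanned 1.94-fold and its TPM 2.30-fold, from 34.7 to 79.9. On those reads the log2 fold change was 0.11 ± 0.17 (SE) without and 0.08 ± 0.11 (SE, unadjusted p = 0.465, edgeR) with the covariate. Rpl29 has 33 near-identical pseudogene copies, whose part in the difference was not tested.

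The 2 deposited quantifications could be compared gene by gene. Whole reads recovered from the authors' normalized values were divided by the deposited counts, as totals over the 16 libraries without scaling to library size. This ratio had a median of 1.01 over the 83 members (all genes 0.889). The ratio was between 0.5 and 2 for 71 members, under 0.5 for 8 and above 2 for 4. The 4 above 2 were Rpl24 (47.9), Rpl13a (16.4), Rps10 (6.97) and Rpl23a (2.70).

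For the first 3 of these, the annotation has another gene on the same strand over part of their exons. Rpl24, a large-subunit protein at the bridge between subunits (chr16:55966275-55971435, plus strand), shares 47.0% of its exonic bases with such genes, here Gm28037. It had 198 deposited counts in all 16 libraries together and 9476 recovered reads, and Gm28037 had 0 and 21. Rpl13a (chr7:45125558-45128761, minus strand), which shares exons with Gm45713, had 1340 deposited counts and 22037 recovered reads. Rps10 (chr17:27630418-27636669, minus strand), which shares exons with RPS10-NUDT3, had 833 and 5804. Both overlapping genes had 0 deposited counts. The deposited counts therefore hold few of the reads that the other quantification gives to these 3 genes, and their tests on counts rest on few reads. On the recovered reads with the covariate, their log2 fold changes were -0.04 ± 0.15 (SE) for Rpl24, 0.10 ± 0.11 for Rpl13a and 0.15 ± 0.18 for Rps10 in edgeR, none with an unadjusted p under 0.05.

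The 8 genes with the lowest ratios were Rpl27 (0.174), Rps27 (0.182), Rpl39l (0.213), Rpl3l (0.246), Rps12 (0.278), Rpl12 (0.281), Rpl10 (0.381) and Rpl5 (0.444). For these, the deposited counts hold more reads than the recovered values. Among them are the members least like the others across libraries in TPM, namely Rps27, Rpl10 and Rpl12. Their TPM levels, such as 12.8 for Rpl27, a protein at the surface of the large subunit, are uncertain to the same degree.

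Of the members, 30 (36.1%) held a small nucleolar RNA gene within their bounds on the same strand, 58 in all, against 1.17% of 21995 protein-coding genes. Rpl13a held 4 and Rpsa 3. The polyadenylated libraries do not measure these small RNAs.

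Genes that work with the ribosome were compared in the same fits, as counts out of the lists. None of their members was called by edgeR in either fit. At an unadjusted p under 0.05 there was 1 gene without the covariate, a ribosome assembly factor, and with it 2 assembly factors, 1 initiation factor and 1 mitochondrial ribosomal protein gene. The shares of all genes were 1.12% and 3.8% at that p, and 45.5% and 53.0% had a log2 fold change above 0. Of 10 elongation factors, 8 were above 0 in each fit (medians 0.04 and 0.05). Of 31 initiation factors, 18 and 17 were (medians 0.02 and 0.01), and of 17 genes for other mRNAs known to carry a pyrimidine tract, 14 were in each fit (0.07 and 0.06). Ribosome assembly factors had 23 and 22 of 33 above 0 (0.04 and 0.03), and mTOR pathway genes that act on the tract 9 and 8 of 13 (0.06 and 0.04). The ribosomal protein genes of mitochondria, a separate set for a separate ribosome, had 37 and 33 of 77 above 0, with medians of 0.00 and -0.02.

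Markers of other cells differed in part between the groups. The summed TPM of 8 excitatory neuron markers was 29.5 to 46.1 in eGFP and 38.8 to 65.8 in eGFP-GluA2 libraries. Of their log2 fold changes, 7 were above 0 without and 8 with the covariate (all genes 45.5% and 53.0%), with medians of 0.25 and 0.24. At an unadjusted p under 0.05 in edgeR there were 1 and 4 (all genes 1.12% and 3.8%). The summed TPM was 17.9 to 50.4 and 24.8 to 49.1 for 8 oligodendrocyte markers, 12.6 to 30.2 over both groups for 10 microglia markers and 31.9 to 70.3 for 8 astrocyte markers, with 7, 8 and 3 estimates above 0 in both fits. For 9 endothelial and mural markers it was 4.57 to 23.1 in eGFP and 5.93 to 20.2 in eGFP-GluA2 libraries, with 3 and 7 estimates above 0. For the erythroid markers it was 11.5 to 54.8 in eGFP and at most 30.6 in eGFP-GluA2 libraries, with all 3 tested genes below 0. An unadjusted p under 0.05 was also found for 1 erythroid marker in each fit. With the covariate it was found for 1 astrocyte, 1 oligodendrocyte and 1 endothelial or mural marker as well. None of these marker lists was at 0 throughout: 1 of the 9 endothelial and mural and 3 of the 5 erythroid markers were at 0 in at least 1 library. The 10 PV-cell markers had 6 of 10 estimates above 0 in each fit, with medians of 0.04. The part of other cells in the members' values was not tested.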

How the data were processed

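RNA from sorted, fixed cortical PV interneurons of 9 eGFP and 7 eGFP-GluA2 mice was sequenced in bulk. According to the series' design text, the authors ran bcbio-nextgen 1.2.3 on paired-end reads of 150 bp. STAR served for alignment to GRCm38, Sailfish with Ensembl genes for quantification, and DESeq2 for the comparison. The deposited counts are whole numbers per gene, and the sources used here do not say which program made them. The authors' TPM values have the same sum in every library. The deposited signal values are counts that the authors divided by a factor for each library. Per the file headers, the same deposited table holds log2 fold changes, a test statistic (a score), and p-values with their adjusted form.

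Symbols, types and coordinates came from GENCODE M21 (GRCm38), which named 54495 of 54532 genes. Whole reads were recovered from the normalized values (100.0% whole within 0.001). Deposited counts (7454165 to 15462544 per library) were tested with edgeR 4.0.16 (R 4.3.3, quasi-likelihood, TMM, robust, filterByExpr, Benjamini-Hochberg over 26257 genes, threshold 0.05), without a covariate and with log2 background CPM as one. Intervals are 95%. SE is the log2 fold change over the root of F. TPM were tested with limma 3.58.1 on log2(TPM + 0.5). That scale understates changes of low genes. Counting error only is covered where a count of 0 is given a limit of 3 counts.

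Named genes were the 5 highest and 3 lowest by mean TPM among those tested, the paralogs with their parents, the P-stalk genes and Rpsa, the 3 largest estimates in each direction and fit, and the 3 highest and 3 lowest ratios of recovered to deposited reads; other members named were chosen after their values were seen. The members, lists and tests were chosen with earlier results of these data known. Alternatives were DESeq2 1.42.0, limma-voom, other scalings, filters and pseudocounts, recovered reads, 1 surrogate variable (sva 3.50.0), a replicate block, each library left out, and background subsets. The edgeR steps were tested on simulated data. Promoter sequences are from RefSeq, for 63 of 83 genes; no other sequences were used. One of the comparison lists is not reported here.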

Additional observations from a re-analysis of the deposited data

Results flagged for a closer look

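The log2 CPM of Rps16 in eGFP-GluA2 1 was 4.0, the lowest of the 7 eGFP-GluA2 libraries, and its gap to the next library was large for the range of the group by Dixon's test at the 95% level. It was the only one among 58 sets of values tested in this way, one per named gene and group, where chance alone marks about 1 in 20. Its deposited counts for Rps16 were 21.1 CPM, and this library also had the lowest summed TPM of the members (3708).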

How the results depend on the processing

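No member passed the adjusted threshold in any of 32 fits without and 31 fits with the covariate. Over all genes, the count past the threshold without the covariate was 1 and became 14 with DESeq2, 9 with 1 surrogate variable, 5 in the high-background libraries alone, 3 without them, 3 on recovered reads, 3 with limma on log2(TPM + 0.1), and 2 each with limma on log2(TPM + 0.5) or log2(TPM + 1), library size only, upper-quartile scaling, or a mean CPM of at least 5. With the covariate it was 9 and became 29 with DESeq2, 52 without the high-background libraries, 5 on recovered reads and 4 with limma on log2(TPM + 0.1), log2(TPM + 0.5) or log2(TPM + 1). Leaving out each library in turn gave 4 to 11, with 4 without eGFP-GluA2 6, eGFP-GluA2 7 or eGFP 7 and 5 without eGFP 9. The cause was not tested. The sample titles give replicate numbers and do not say that these pair the samples. The correlation between libraries of the same number ran from -0.03 (replicate 4) to 0.90 (replicate 7). Libraries correlated best with their own number for 2 of 7 numbers. These correlations also carry the background levels of the libraries, so they cannot decide whether the numbers mark pairs. With the replicate number as a block, 8 genes were called without the covariate and 0 members, 27 members (33.3%, all genes 8.72%) had an unadjusted p under 0.05, and the members' median was 0.23. The members' median kept above 0 without the covariate under every other setting but the high-background libraries alone (-0.22); with it, it was also below 0 without eGFP-GluA2 2 (-0.01) and in the high-background libraries alone (-0.06). The log2 difference of summed TPM was 0.04 to 0.29 with single libraries left out, and that of the small-subunit share 0.25 to 0.43 percentage points. Estimates of named genes changed sign in 121 of 833 gene and setting combinations without and 85 of 806 with the covariate, none of them called. Low deposited counts limit Rpl10l and Rpl39l, which were not tested, and also Rpl24, Rpl13a and Rps10. The last 3 had many more recovered reads than deposited counts in the same libraries.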
